A study of Homo sapiens with 18 samples.

Results

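HDM201, also known as siremadlin, is a small molecule that blocks MDM2, and the response described here is that of OCI-AML3 cells to it, read over every probe of an expression array. OCI-AML3 was established from human acute myeloid leukaemia, and its genotype is labelled wildtype. The comparison sets 6 arrays of cells given 500 nM HDM201 against 6 arrays of cells given DMSO, the solvent, so it uses 12 of the 18 arrays of the study. The other 6 arrays come from cells given 2 µM RG7112, another MDM2 inhibitor. All groups were harvested after 24 h and were kept in RPMI with fetal calf serum, and each compound was given at 1 dose and 1 time. The replicates are labelled biological, but nothing states how the cultures were kept apart, so p-values here measure the spread between these samples. A single cell line limits what the groups stand for.

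MDM2 is a ubiquitin ligase that binds the transcription factor p53 and marks it for destruction. When a compound occupies the p53 pocket of MDM2, p53 accumulates and switches on genes such as CDKN1A, an inhibitor of cyclin-dependent kinases, and MDM2 itself. Through CDKN1A, p53 lets the RB family and the DREAM complex shut down genes of the cell cycle. These p53 targets and cell cycle genes are the familiar part of the response, and they were kept apart in 5 lists so that the remainder of the genome could be described.

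Values are log2 signals, and a difference is the mean of the HDM201 arrays minus the mean of the DMSO arrays, so a difference of 1 is 2-fold. Replicates 1 to 3 and 4 to 6 form 2 sets that stand apart on the arrays, and the set was a term in the fit. The labels do not say what distinguishes the sets, and 950 of 21448 probes differed between them in limma with Benjamini-Hochberg adjustment. Array medians lay between 6.44 and 6.53, none of these 12 arrays stood apart from its group, and precision is limited by how many arrays there are. Genes with a DMSO mean below 4.94, the 95th percentile over 348 olfactory receptor genes, are called dim. In the DMSO arrays the myeloid genes SPI1, CEBPA and LYZ had means of 10.29, 9.90 and 12.70, whereas MPO lay at 5.41 and KIT at 3.61, which is dim. In bulk RNA, fewer cells of a kind and less RNA per cell cannot be told apart.

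Changes under HDM201 reached across the array. Of 21448 probes, 5684 passed an adjusted p of 0.05 (26.5%), with 2761 that rose (12.9%) and 2923 that fell (13.6%). A change of at least 2-fold was found for 701 probes (3.27%), 332 of which rose (1.55%) and 369 of which fell (1.72%). The 6 HDM201 arrays did not overlap the 6 DMSO arrays for 2907 probes (13.6%), higher for 1422 (6.63%) and lower for 1485 (6.92%). The median over all named genes was 0.02, but the deposited values were quantile normalized, which itself holds this median near 0. Among named genes, 292 rose and 336 fell by at least 2-fold. The raised genes reached further: 53 of the 292 rose by at least 4-fold and 12 by at least 8-fold, against 11 and 0 of the 336 lowered genes. They also started lower than the lowered genes, with a median DMSO level of 6.86 against 8.92. Of the raised genes 33 (11.3%) were dim in DMSO, against 0 of the lowered genes, and a dim gene has little room to fall. Over all named genes the median level was 6.68 and 28.3% were dim, so the raised genes were dim less often than the array. The 5 genes just inside the 2-fold line had absolute differences that rounded to 1.00, and the 5 just outside lay between 0.995 and 0.998.

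**Figure D1:**
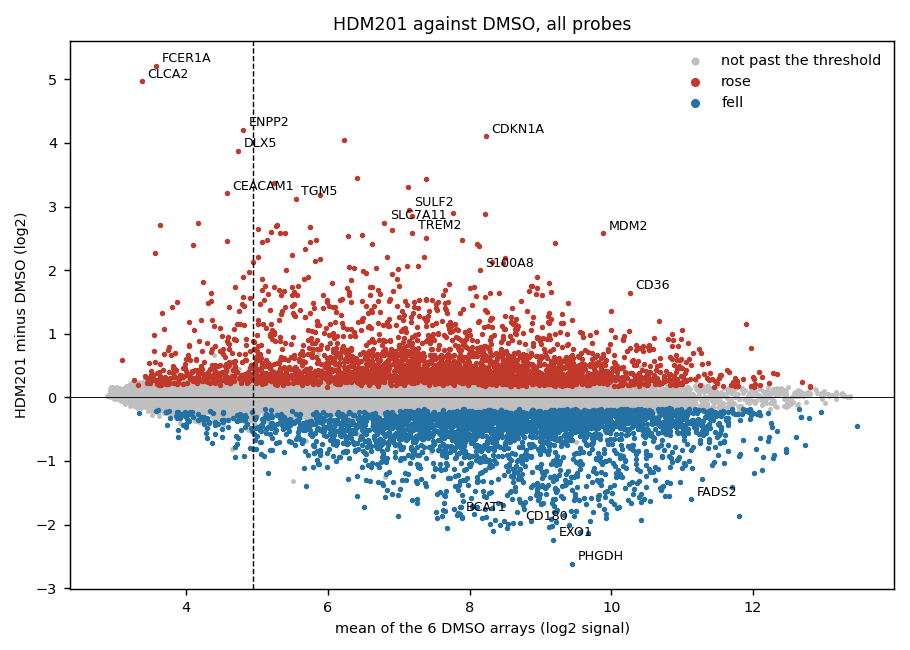
Difference between HDM201 and DMSO (log2, vertical) against the mean of the 6 DMSO arrays (log2 signal, horizontal) for all 21448 probes. Red probes rose (2761), blue probes fell (2923) and grey probes did not pass. The dashed line is the dim level of 4.94. Rises reach 5.22 (FCER1A) and include probes left of the line, while falls reach -2.61 (PHGDH) and lie mostly at mid to high levels.

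The familiar genes took very different shares of the 2 directions. CDKN1A lay between 7.27 and 9.13 in DMSO (median 8.31) and between 11.81 and 12.82 with HDM201 (median 12.36), a difference of 4.10 (95% interval 3.80 to 4.41, adjusted p = 6.6e-11). All 6 HDM201 arrays were above all 6 DMSO arrays, and in DMSO the replicates 1 to 3 (8.94 to 9.13) were above the replicates 4 to 6 (7.27 to 7.68). MDM2 rose by 2.58 (2.36 to 2.80). The p53 target list had 124 of 149 measured members that rose and 2 that fell, with a median difference of 1.03, and its highest members were CLCA2, ENPP2 and CDKN1A. The G1/S and DNA replication list had 76 of 79 members that fell (median -1.42), the G2/M and mitosis list 131 of 132 (median -1.34), recombination, Fanconi and checkpoint genes 24 of 28 with 1 that rose (median -1.47), and histones 53 of 67 (median -0.86). The background is 13.3% of named genes that rose and 14.7% that fell. EXO1, an exonuclease of mismatch repair, was the lowest of these genes at -2.24. Of the 336 genes that fell at least 2-fold, 205 (61.0%) sit in these 5 lists, against 77 of the 292 (26.4%) that rose. The other 215 raised and 131 lowered genes are described next. The function lists read after them can also hold members of these 5 lists.

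The strongest rise on the array was in FCER1A, which encodes the IgE-binding alpha subunit of the high-affinity Fc receptor. FCER1A lay between 3.38 and 3.82 in DMSO (median 3.55), which is dim, and between 7.17 and 10.07 with HDM201 (median 8.90). The measured difference was 5.22 (4.55 to 5.89, adjusted p = 1.5e-08), or 37.2-fold, and against the dim level it is at least 14.5-fold. The HDM201 arrays of replicates 1 to 3 were all above those of replicates 4 to 6. In the list of mast cell and basophil genes FCER1A was the sole member of 27 that rose, and RAB27B, which acts in granule release, the sole member that fell, by 0.87. The mean level of that list was 5.55 to 5.67 over the DMSO arrays and 5.71 to 5.92 over the HDM201 arrays, and 14 of the 27 genes were dim in DMSO. Without FCER1A the list means were 5.63 to 5.76 and 5.65 to 5.76, which overlap.

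Several of the next largest rises were in receptors and ligands of the immune system. CEACAM1, an adhesion receptor of the carcinoembryonic antigen family, went from 4.31 to 5.03 in DMSO (median 4.52) to 6.52 to 8.92 (median 7.77), a difference of 3.21 (2.68 to 3.74). CEACAM1 was dim in DMSO, and its rise is at least 7.16-fold. TREM2, a lipid-binding receptor of macrophages and microglia, went from 6.67 to 7.98 (median 7.04) to 9.31 to 10.57 (median 9.58), a difference of 2.59. TNFSF4, the ligand of the T cell receptor OX40, also differed by 2.59, from a median of 5.37 to a median of 7.98. The groups did not overlap for any of these 3 genes, as the rule for choosing them required. IL21R, a cytokine receptor, rose by 2.47, and CXCR2, the receptor of interleukin 8 and related chemokines, by 2.07. In CXCR2 the arrays lay between 6.62 and 7.58 in DMSO (median 7.15) and between 8.67 and 9.77 with HDM201 (median 9.13), and both sets gave nearly the same rise, 2.13 and 2.01.

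Other genes at the top have varied roles. DLX5, a homeobox transcription factor of bone and forebrain development, went from 4.38 to 4.92 (median 4.81) to 7.34 to 10.24 (median 8.48), a difference of 3.88 (3.22 to 4.53), and is at least 12.7-fold higher than the dim level. DLX6, its neighbour in the genome, differed by 0.09 and did not pass (adjusted p = 0.64), and was added after its value was seen. TGM5, a transglutaminase that crosslinks proteins in the epidermis, rose by 3.12 (2.79 to 3.44), and SULF2, an extracellular sulfatase that trims heparan sulfate, by 2.95 (2.29 to 3.60). The DMSO arrays of SULF2 spread widely, from 6.12 to 8.06, and the lowest HDM201 array lay at 9.53. The rule for choosing SULF2 required groups without overlap. UNC13A, which primes synaptic vesicles, had a measured rise of 2.74 and was dim in DMSO, so its rise is at least 3.94-fold. PYHIN1, of the interferon-inducible HIN-200 family, rose by 2.70, SLFN5, of the Schlafen family, by 2.67, TCEA3, a transcription elongation factor, by 2.60, DQX1, a relative of RNA helicases, by 2.58, and TMEM144, a transmembrane protein, by 2.55.

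Metabolic genes were also among them. SLC7A11, the light chain of the antiporter that brings cystine into the cell in exchange for glutamate, went from 6.32 to 7.18 (median 6.83) to 9.37 to 9.80 (median 9.46), a difference of 2.74 (2.55 to 2.93, adjusted p = 4.9e-11). Its arrays were tightly grouped with HDM201, and SLC7A11 had the highest moderated t of limma outside the 5 lists, 30.4. SAT1, which acetylates spermidine and spermine for export or breakdown, rose by 2.48 (2.03 to 2.93). The next highest t values belonged to TMEM144, to FAT1, a giant protocadherin that rose by 2.37 (2.15 to 2.60), to CXCR2 and to CYGB, a globin, which rose by 1.80 (1.63 to 1.98). In these 4 genes the rises within the 2 sets were close: 2.65 and 2.45 for TMEM144, 2.52 and 2.23 for FAT1, and 1.79 and 1.82 for CYGB.

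PHGDH had the largest fall on the array. It encodes phosphoglycerate dehydrogenase, the first enzyme of serine synthesis from glucose. PHGDH lay between 8.71 and 9.87 in DMSO (median 9.50) and between 6.29 and 7.55 with HDM201 (median 6.83). The groups did not overlap, and the difference was -2.61 (-2.90 to -2.33, adjusted p = 3.4e-09), with -2.82 within replicates 1 to 3 and -2.41 within replicates 4 to 6. CD180, a relative of the Toll-like receptors on B cells and myeloid cells, was next outside the 5 lists, from 8.12 to 9.28 (median 8.74) to 5.00 to 7.88 (median 6.86), a fall of 1.98. Its HDM201 arrays were widely spread, and all lay below the DMSO arrays, as the same rule required.

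Further metabolic genes and several genes of chromosomes and the cytoskeleton completed the lowest 15. BCAT1, which transfers the amino group of branched-chain amino acids, and MCUB, a subunit that restrains the mitochondrial calcium uniporter, each fell by 1.84. RTKN2 fell by 1.87 and TUBA4A, an alpha tubulin, by 1.79. ATAD5, which unloads the sliding clamp PCNA from DNA, fell by 1.65, ZGRF1, a helicase of crosslink repair, by 1.72, and DDIAS, a suppressor of apoptosis after DNA damage, by 1.84. SASS6, the building block of the centriole cartwheel, fell by 1.64 and FBXO43, an inhibitor of the anaphase-promoting complex in meiosis, by 1.73. NRM, a protein of the inner nuclear membrane, fell by 1.61, MTFR2, a regulator of mitochondrial fission, by 1.60, and KLHL23, of the kelch-like family, by 1.65. C5orf34 fell by 1.87. By function several of these belong with replication and mitosis, although the 5 lists did not hold them. The most negative t values outside the lists were those of PHGDH, CDCA7L (-1.38), PSIP1, a chromatin reader (-1.25), ZGRF1 and NRM.

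**Figure D2:**
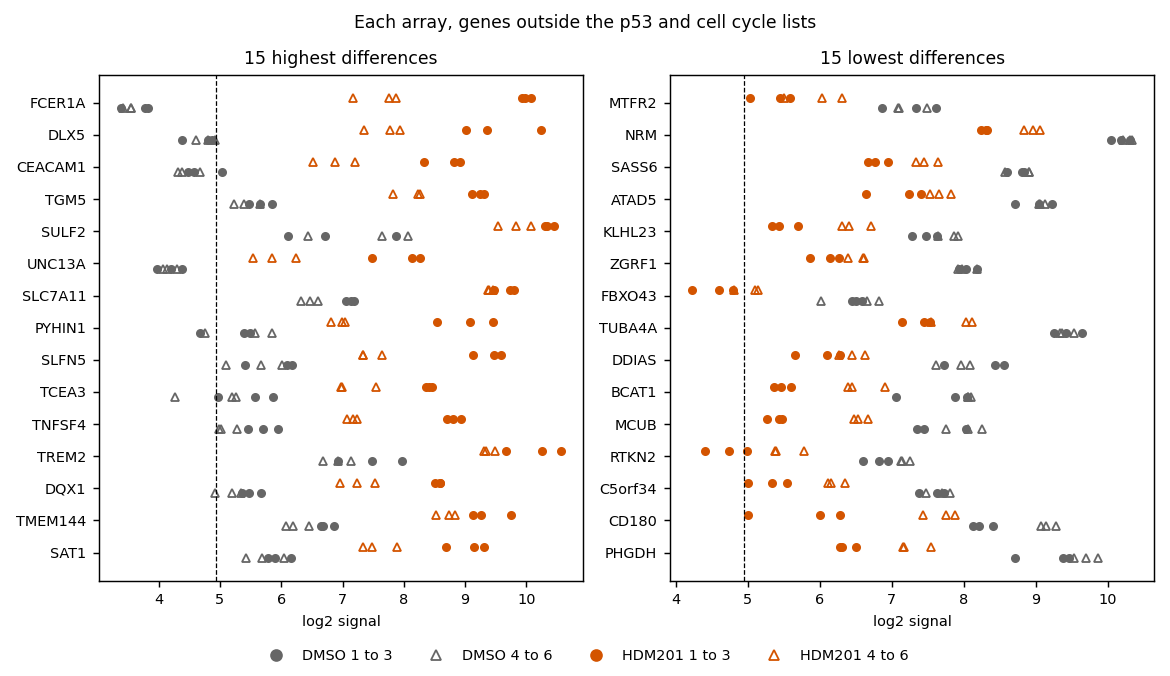
Log2 signal of each array for the 15 highest (left) and 15 lowest (right) differences outside the p53 and cell cycle lists. Grey marks are DMSO and orange marks HDM201, filled circles are replicates 1 to 3 and open triangles replicates 4 to 6, and the dashed line is the dim level of 4.94. The groups do not overlap in any gene, as the rule for choosing them required, and in FCER1A, DLX5, CEACAM1 and UNC13A the HDM201 circles lie clearly to the right of the triangles.

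Promoters of the changed genes were read for short motifs, in windows of 250 bases before and 50 after the start of transcription (RefSeq, GRCh38.p14). A window was at hand for 14250 of 17687 named genes. Both strands were searched for the p53 half-site decamer by its name, for TTTGAA, the core of the cell cycle homology region bound by DREAM, for CCAAT, and for the E2F site in its spellings TTTCCCGC, TTTCGCGC, TTTGCCGC and TTTGGCGC. Only exact matches were counted, and matches of different motifs were counted even where they overlapped. The p53 decamer stood in 6.14% of all windows, in 31 of 240 (12.9%) of genes that rose at least 2-fold and in 6.81% of those that fell. Outside the 5 lists the share for raised genes was 23 of 178, again 12.9%. TTTGAA stood in 12.4% of all windows, in 12.1% of raised and 31.9% of lowered genes, and in 18.1% of lowered genes outside the lists. CCAAT stood in 36.1% of all windows, 32.5% of raised and 56.3% of lowered genes, or 38.1% of lowered genes outside the lists. The E2F site stood in 4.25% of all windows and 18.3% of lowered genes, or 8.57% outside the lists. A full p53 site, a pair of exact decamers joined by at most a short spacer, stood in 1 of 14250 windows and in 0 of the 240 of raised genes. Sites with any mismatch to the consensus, or outside the window, were not searched for. The counts therefore do not show how many of these genes have a p53 site. Most windows of raised genes held no exact decamer, and a match describes letters, not binding.

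Windows of 3 raised and 2 lowered genes outside the lists are printed to show where the motifs lie. CXCR2, BLNK, an adaptor of B cell receptor signalling, and YPEL3 rose, and BLNK and YPEL3 were chosen for their decamers after their values were seen (BLNK 1.90, YPEL3 1.80). C5orf34 and ZGRF1 fell. Capitals mark the decamer in the first 3 sequences and TTTGAA, or its reverse complement, in the last pair.
CXCR2 (chr2:218125778-218126077, plus strand): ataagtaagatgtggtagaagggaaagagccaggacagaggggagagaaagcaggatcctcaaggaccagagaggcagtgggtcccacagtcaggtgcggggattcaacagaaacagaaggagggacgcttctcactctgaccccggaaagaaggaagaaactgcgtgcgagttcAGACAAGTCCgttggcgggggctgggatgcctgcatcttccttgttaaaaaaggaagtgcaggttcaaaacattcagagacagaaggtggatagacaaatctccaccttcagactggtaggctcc
BLNK (chr10:96271520-96271819, minus strand): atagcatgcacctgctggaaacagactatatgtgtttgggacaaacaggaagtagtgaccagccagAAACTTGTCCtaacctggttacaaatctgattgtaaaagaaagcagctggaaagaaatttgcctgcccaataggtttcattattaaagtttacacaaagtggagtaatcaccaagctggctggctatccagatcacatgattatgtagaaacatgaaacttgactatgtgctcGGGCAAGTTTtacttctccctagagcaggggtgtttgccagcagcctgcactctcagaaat
YPEL3 (chr16:30096164-30096463, minus strand): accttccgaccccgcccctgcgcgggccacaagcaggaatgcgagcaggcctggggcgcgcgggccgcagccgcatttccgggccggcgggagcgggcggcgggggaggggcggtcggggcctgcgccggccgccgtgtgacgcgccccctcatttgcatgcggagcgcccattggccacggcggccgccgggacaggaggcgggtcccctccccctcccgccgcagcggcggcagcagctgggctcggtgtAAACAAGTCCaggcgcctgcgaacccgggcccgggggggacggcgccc
C5orf34 (chr5:43515099-43515398, minus strand): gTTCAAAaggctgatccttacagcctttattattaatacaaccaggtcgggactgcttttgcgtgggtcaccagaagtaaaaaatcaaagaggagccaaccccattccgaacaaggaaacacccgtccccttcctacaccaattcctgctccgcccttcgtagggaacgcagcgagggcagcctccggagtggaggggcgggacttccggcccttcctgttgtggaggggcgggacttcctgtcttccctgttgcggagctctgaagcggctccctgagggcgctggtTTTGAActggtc
ZGRF1 (chr4:112636860-112637159, minus strand): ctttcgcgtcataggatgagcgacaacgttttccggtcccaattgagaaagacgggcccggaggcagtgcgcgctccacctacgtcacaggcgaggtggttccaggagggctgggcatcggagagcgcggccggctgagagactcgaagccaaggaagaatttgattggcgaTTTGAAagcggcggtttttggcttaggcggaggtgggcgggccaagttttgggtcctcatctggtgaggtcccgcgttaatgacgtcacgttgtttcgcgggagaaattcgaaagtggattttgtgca

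Beyond single genes, 55 lists of genes by function or cell type were read by their counts and their medians. These lists differ in signal level, and its part in the counts was not tested. Outside the 5 familiar lists, 12.9% of named genes rose and 13.4% fell, with a median of 0.02. Of the other lists, those with the lowest medians were those of one-carbon metabolism and nucleotide synthesis, the nuclear pore, ribosome biogenesis and splicing. Among enzymes of one-carbon metabolism and nucleotide synthesis, 20 of 29 fell and 2 rose, with a median of -0.50. The lowest were DUT, which removes dUTP (-0.99), PPAT, the entry step of purine synthesis (-0.96), and MTHFD1, a folate enzyme (-0.93). SHMT2, the mitochondrial enzyme that makes glycine from serine, fell by 0.56, while MTHFD1L differed by -0.17 and did not pass.

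The serine pathway did not move as one. PHGDH fell by 2.61, PSAT1, the second enzyme, rose by 0.34 (adjusted p = 0.021), and PSPH, the last, differed by -0.08 (adjusted p = 0.61). PSAT1 no longer passed without HDM201 replicate 3, at 0.29 (adjusted p = 0.054). PSAT1, PSPH and SHMT2 were named after their values were seen. In the list of the integrated stress response, the program run by the transcription factor ATF4, 9 of 31 members rose and 14 fell (median -0.24). SLC7A11 (2.74) and SESN2, an inhibitor of mTORC1 signalling (1.74), stood highest, and PHGDH (-2.61) and ALDH1L2, a mitochondrial folate enzyme (-1.33), lowest. ATF4 itself fell by 0.40 and ASNS, asparagine synthetase, by 0.99 (both named after their values were seen), and VEGFA differed by -0.40 with an interval from -1.07 to 0.27. SESN2 is also a p53 target.

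Lists of RNA and protein production are given next. Nuclear pore and import genes fell in 40 of 55 and rose in 2 (median -0.39), led by NUP205 (-1.10), NDC1 (-1.08) and NUP107 (-1.02). Splicing and mRNA export genes fell in 37 of 51 and rose in 2 (median -0.30), led by LSM3 (-0.82), SNRPA1 (-0.79) and SNRPG (-0.66). Ribosome biogenesis genes fell in 21 of 33 and rose in 0 (median -0.34), with LYAR at -0.60, UTP20 at -0.58 and POLR1B, a subunit of RNA polymerase I, at -0.53. MYC, which drives ribosome production, fell by 0.55, and MXD1, of the factors that oppose MYC, rose by 0.58. Aminoacyl-tRNA synthetases fell in 9 of 16 (median -0.22), led by AARS1 (-0.83), and SARS1 was the sole one that rose (0.43). Heat shock and chaperonin genes fell in 16 of 32 and rose in 1 (median -0.21), and proteasome genes fell in 15 of 45 and rose in 1 (median -0.13), with the assembly chaperone PSMG1 at -1.08. In contrast, cytosolic ribosomal proteins rose in 4 of 54 and fell in 2 (median 0.08), with RPS19 at 0.31 and RPL39L at -0.94. Their median DMSO level was 12.14, against 9.28 for ribosome biogenesis genes, and the part of signal level in the contrast was not tested. Mitochondrial ribosomal proteins fell in 19 of 74 (median -0.14), and subunits of oxidative phosphorylation rose in 9 and fell in 13 of 74 (median -0.02).

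Chromatin and lipid genes were more mixed. In the list of DNA methylation, Polycomb and chromatin, 24 of 55 fell and 8 rose (median -0.16). DNMT3B, a DNA methyltransferase, fell by 1.22, and the histone H3 lysine 9 methyltransferases SUV39H1 and SUV39H2 fell by 1.21 and 0.99. Glycolysis genes fell in 10 of 24 and rose in 3 (median -0.24). PFKFB3, a kinase whose product stimulates phosphofructokinase, rose by 1.36, and PDK1, which restrains pyruvate dehydrogenase, fell by 0.85. Cholesterol synthesis genes fell in 8 of 21 and rose in 2 (median -0.17), with EBP at -0.84 and ACAT2 at -0.70 but the sterol reductase TM7SF2 at 1.38. Of 28 genes of fatty acids and lipid droplets 9 fell and 4 rose (median -0.05), among them the desaturases FADS2 (-1.60) and SCD (-1.17) and the fatty acid binding protein FABP5, whose median went from 9.33 to 8.20. The arrays of FADS2 ranged from 10.33 to 11.83 in DMSO and from 8.58 to 10.47 with HDM201, so the groups overlapped. TFRC, the transferrin receptor, fell by 1.18, and NCOA4, the receptor that carries ferritin to lysosomes, rose by 1.05.

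**Figure D3:**
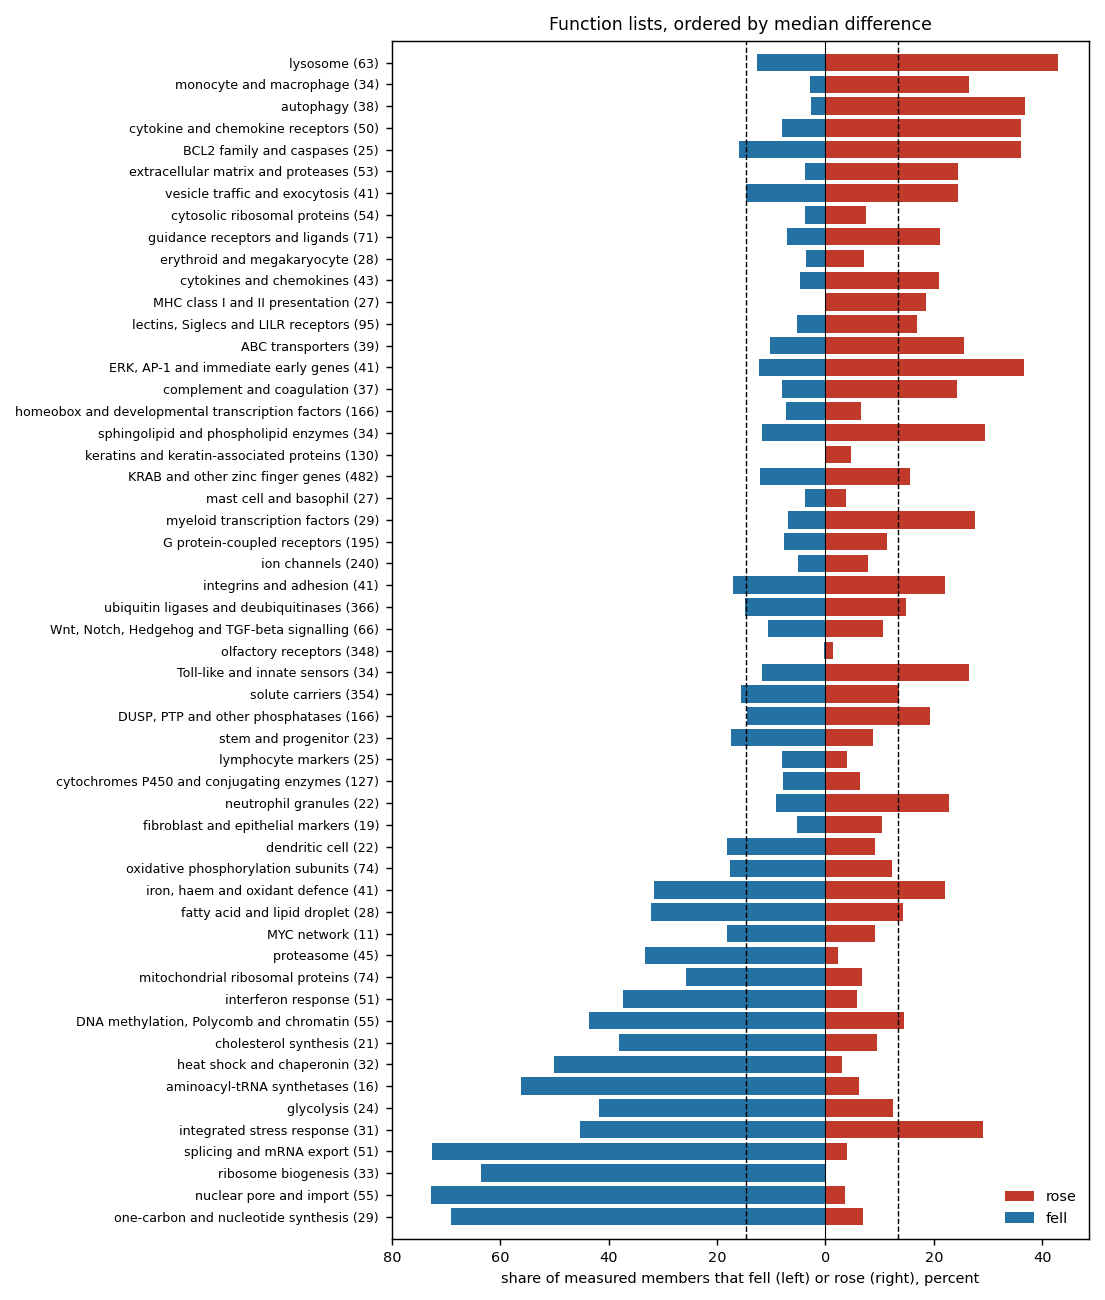
Share of measured members that rose (red, to the right) and fell (blue, to the left) in the function and cell type lists, 1 of which is not shown, in percent, ordered by median difference, with the number measured in parentheses. Dashed lines mark 13.3% rose and 14.7% fell over all named genes. Lysosome genes stand at the top with 42.9% that rose, and one-carbon and nucleotide synthesis at the bottom with 69.0% that fell.

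Genes of lysosomes and autophagy rose more often than the background. However, 2 of the 63 lysosome genes and 0 of the 38 autophagy genes were dim in DMSO, against 28.3% of all named genes. The part of signal level in this was not tested. Of 63 lysosome genes 27 rose and 8 fell (median 0.18). FUCA1, a fucosidase, went from 5.51 to 7.04 in DMSO (median 6.37) to 7.50 to 9.28 (median 8.44), a difference of 2.04, and the groups did not overlap. ARSA, an arylsulfatase, rose by 1.37 and LIPA, the acid lipase, by 1.32. Of 38 autophagy genes 14 rose and 1 fell (median 0.13), with GABARAPL1, which is joined to autophagosome membranes, at 1.55 and MAP1LC3A at 0.76. BNIP3 differed by -0.20 with an interval from -0.77 to 0.37. FUCA1 is also known as a p53 target.

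**Figure D4:**
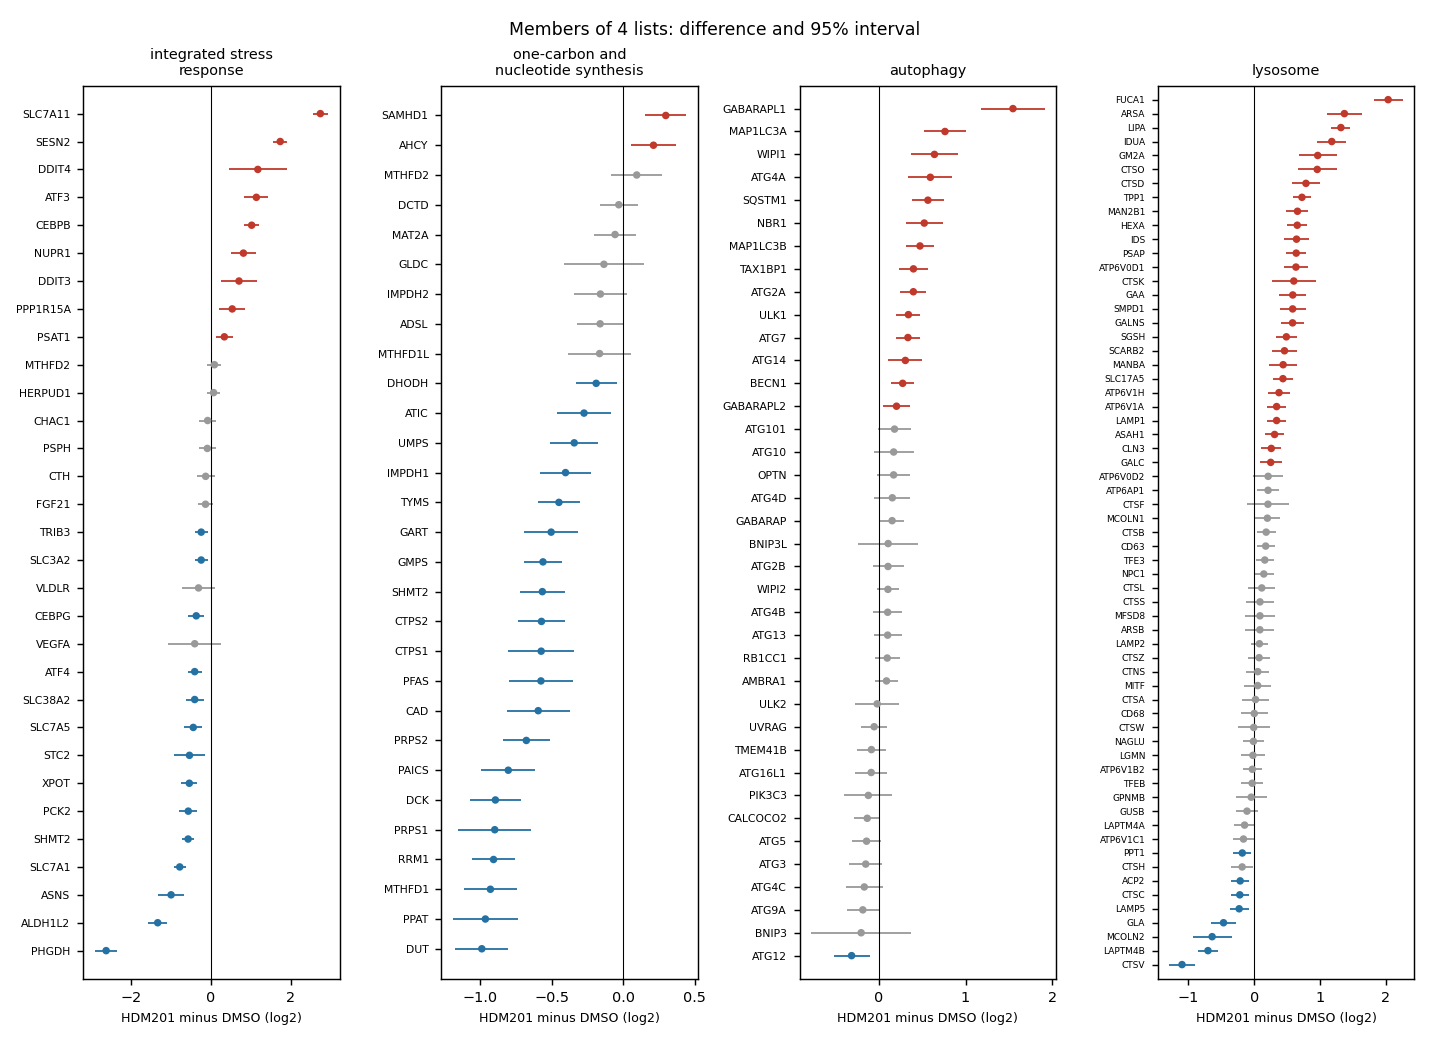
Difference between HDM201 and DMSO (log2, horizontal) with its 95% interval for every measured member of 4 lists, red where it rose, blue where it fell and grey where it did not pass. The integrated stress response runs from -2.61 (PHGDH) to 2.74 (SLC7A11), one-carbon and nucleotide genes lie mostly left of 0 with 20 of 29 that fell, and autophagy (14 of 38 rose) and lysosome genes (27 of 63 rose) lie mostly to the right.

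Among 50 cytokine and chemokine receptors, 18 rose and 4 fell (median 0.11), led by IL21R, CXCR2 and IL10RA (1.09). Of 43 cytokines and chemokines 9 rose and 2 fell, and besides TNFSF4 the T cell ligand TNFSF9 (4-1BB ligand) rose by 1.13 and the growth factor HBEGF by 1.02, while CCL2 differed by -0.78 and did not pass (adjusted p = 0.053). CCL2 passed at -1.07 without HDM201 replicate 1 and at -0.88 without HDM201 replicate 5. In the list of ERK, AP-1 and immediate early genes 15 of 41 rose and 5 fell (median 0.05). JUN, a subunit of AP-1, went from 5.24 to 6.46 (median 5.70) to 7.34 to 9.02 (median 8.22), a difference of 2.44 without overlap, IER3 rose by 2.02 and EGR1 by 1.65. Guidance receptors and ligands rose in 15 of 71 and fell in 5, with PLXNB3 at 2.01, EPHA2 at 1.73 and NRP1 at 1.41. PLXNB3 and EPHA2 are also in the p53 target list. ACTA2, smooth muscle actin, rose by 2.11. Extracellular matrix genes rose in 13 of 53 and fell in 2, with COL5A1 at 1.56 and FN1, fibronectin, at 1.54. The highest members of other lists were PTPRU, a receptor tyrosine phosphatase (2.53), and TGFBI, a secreted matrix protein (2.41). Of these, PTPRU is also in the p53 target list.

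Regulators of complement on the cell surface were among the raised genes. Of 37 complement and coagulation genes 9 rose and 3 fell. CD46 and CD55, which protect cells from complement, rose by 1.48 and 1.36 without overlap between the groups. CR1, a complement receptor, rose by 1.62, with arrays from 4.49 to 6.34 in DMSO and from 6.22 to 7.71 with HDM201, which overlap. ABC transporters rose in 10 of 39 and fell in 4. ABCA1, which exports cholesterol, rose by 1.52 and ABCA7 by 1.10. ABCA13, which was dim in DMSO, rose at least 2.81-fold (measured difference 1.74). Galectin LGALS9 rose by 1.67 and LGALS9C by 1.50, and these near-identical copies may share probes. Of 25 genes of the BCL2 family and caspases 9 rose and 4 fell, with BCL2A1, which blocks apoptosis, at 1.62, BAK1, which promotes it, at 0.65 and CASP2 at -0.84.

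Myeloid genes moved in part. Of 34 monocyte and macrophage genes 9 rose and 1 fell (median 0.17), and the mean level of the list was 7.08 to 7.32 over the DMSO arrays and 7.42 to 7.71 over the HDM201 arrays. ITGAM, the CD11b integrin, went from 5.48 to 6.34 (median 5.88) to 7.04 to 9.08 (median 8.09), a difference of 2.18. S100A8, an alarmin of myeloid cells, rose by 2.00 and CD36, a scavenger receptor, by 1.64, and none of these 3 overlapped between the groups. VCAN differed by 0.76 and did not pass (adjusted p = 0.11), but passed at 1.02 without DMSO replicate 1 (adjusted p = 0.019). Neutrophil granule genes rose in 5 of 22 and fell in 2 (median 0.00), with AZU1 at 0.91. NCF1, a subunit of the phagocyte oxidase whose pseudogenes may share its probes, rose by 1.16. Among myeloid transcription factors 8 of 29 rose and 2 fell, with STAT3 at 1.11 and CEBPB at 1.02. Stem and progenitor genes rose in 2 of 23 (8.7%) and fell in 4 (17.4%), with a median of 0.01. These shares lie near the 13.3% and 14.7% over all named genes. FLT3, a receptor of early progenitors, fell by 1.21 and ERG by 0.72, while CD38 rose by 0.94.

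Markers of other cell types were read in the same way, beside the 13.3% of all named genes that rose and the 14.7% that fell. Lymphocyte markers rose in 1 of 25 and fell in 2, with mean list levels of 5.99 to 6.14 in DMSO and 5.89 to 6.00 with HDM201, and GZMA, granzyme A, fell by 1.32. Erythroid and megakaryocyte genes rose in 2 of 28 and fell in 1, with list levels of 5.18 to 5.44 and 5.32 to 5.43. Fibroblast and epithelial markers rose in 2 of 19 and fell in 1, with list levels of 5.17 to 5.24 and 5.16 to 5.22. Dendritic cell genes rose in 2 of 22 and fell in 4, with list levels of 5.86 to 6.12 and 5.83 to 5.96. The part of such cells in the results above was not tested. Lists of genes that blood cells seldom use gave few calls: olfactory receptors rose in 5 of 348 and fell in 1, and keratins rose in 6 of 130 and fell in 0. In DMSO 330 of these olfactory receptors, which define the dim level, and 78 of the keratins were dim. Such dim lists cannot serve as a control for brighter ones.

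Interferon genes fell more often than they rose. Of 51 members 19 fell and 3 rose (median -0.15). USP18, which damps interferon signalling, went from 6.17 to 6.86 (median 6.30) to 4.40 to 5.47 (median 4.83), a difference of -1.56, and OAS1, a sensor of double-stranded RNA, differed by -1.30. The groups did not overlap for either gene. TAP1, which pumps peptides to MHC class I, moved the other way, from 6.65 to 6.97 (median 6.91) to 7.93 to 8.87 (median 8.29), a rise of 1.51. Among 27 genes of MHC presentation 5 rose and 0 fell, and besides TAP1 the trimming peptidases ERAP2 and ERAP1 rose by 0.64 and 0.34. Toll-like and innate sensors rose in 9 of 34 and fell in 4, with TLR6 at 1.36 and CASP1 at 0.95 against CD180 at -1.98. TRIM22, an antiviral ubiquitin ligase that is also in the p53 target list, rose by 1.75. In the Schlafen family SLFN5 rose by 2.67 and SLFN12 by 0.79 while SLFN11, which blocks stressed replication forks, fell by 1.49. SLFN11 and SLFN12 were named after their values were seen.

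The response was larger in replicates 1 to 3 than in replicates 4 to 6 for most strong genes. Among the 292 genes that rose at least 2-fold the median rise was 1.66 within replicates 1 to 3 and 1.20 within replicates 4 to 6, and 236 (80.8%) rose more in the former. Among the 336 that fell the medians were -1.59 and -1.13, and 323 (96.1%) fell further in replicates 1 to 3. Over all named genes the difference was larger in size in replicates 1 to 3 for 10955 of 17687 (61.9%). A test of the difference itself, an interaction term in limma, called 60 probes (0.28%), of which 56 had the larger response in replicates 1 to 3. That count is unstable: it was 24, 32, 19 and 31 without DMSO replicate 2, 3, 5 or 6, and 117, 23, 25, 23 and 27 without HDM201 replicate 1, 2, 3, 4 or 6. FCER1A rose by 6.34 within replicates 1 to 3 and by 4.09 within replicates 4 to 6 (interaction adjusted p = 0.00128). PXT1 rose by 2.85 and 0.78, DSEL by 2.38 and 0.61, ABCA13 by 2.66 and 0.81 and UNC13A by 3.78 and 1.71, and all 4 were dim in DMSO, so these are measured differences from a level near the background. Over both sets the rises from the dim level are at least 2.16-fold for PXT1 and 1.34-fold for DSEL. ACTA2 went the other way, with 1.66 and 2.57. CDKN1A, the anchor of the p53 response, rose by 3.66 and 4.54 (interaction adjusted p = 0.0571), from the unequal DMSO levels given above.

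**Figure D5:**
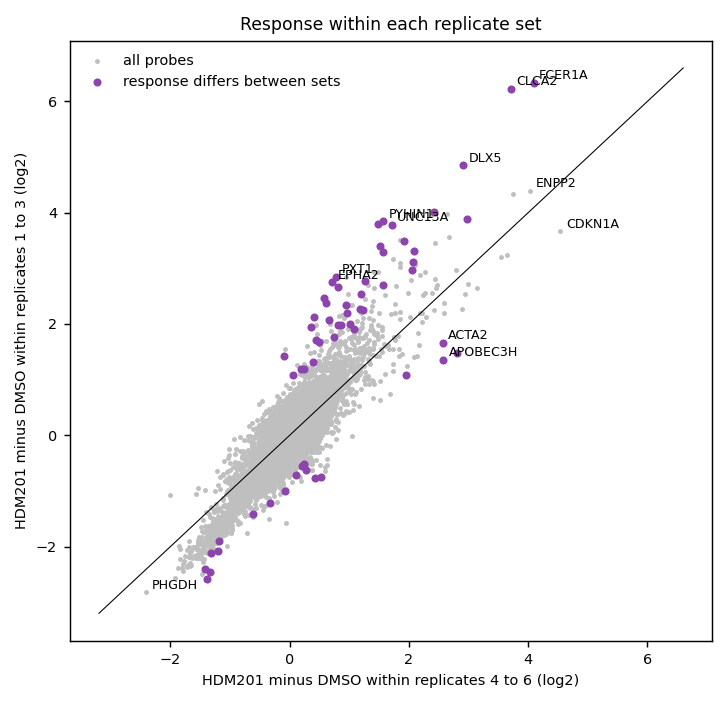
HDM201 minus DMSO within replicates 1 to 3 (vertical) against the same within replicates 4 to 6 (horizontal), both log2, for all probes, with the line of equality. Purple marks are the 60 probes whose response differed between the sets, 56 of them farther from 0 in replicates 1 to 3. FCER1A lies at 6.34 against 4.09, and ACTA2 lies below the line at 1.66 against 2.57.

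RG7112, given at 2 µM, has the same DMSO arrays as its control, so its values stand beside those of HDM201 without being counted as support. With RG7112 against DMSO the differences were 4.90 for FCER1A, 3.38 for DLX5, 2.71 for CEACAM1, 2.80 for SLC7A11, -2.39 for PHGDH and -1.94 for CD180. Without RG7112 replicate 3 they were 4.93, 3.45, 2.95, 2.69, -2.28 and -1.47 for these genes in the same order. The compounds were compared directly over all 18 arrays, at doses that differ. No probe passed in limma with Benjamini-Hochberg adjustment, 944 of 21448 had an unadjusted p below 0.05, and the largest absolute difference was 0.71. RG7112 replicate 3 had a mean correlation of 0.972 with its group, against 0.986 to 0.988 for the other 5. Without it 0 probes passed, 1051 had an unadjusted p below 0.05 and the largest absolute difference was 0.62. HDM201 minus RG7112 was 0.31 for FCER1A (95% interval -0.35 to 0.97), 0.14 for CDKN1A (-0.15 to 0.43), -0.06 for SLC7A11 (-0.31 to 0.19) and -0.23 for PHGDH (-0.55 to 0.09). Without that array it was 0.29 for FCER1A (-0.42 to 1.00), 0.13 for CDKN1A (-0.17 to 0.44), 0.05 for SLC7A11 (-0.15 to 0.26) and -0.33 for PHGDH (-0.64 to -0.03). The median interval reached 0.22 to either side, and the absence of calls does not show that they act alike.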

How the data were processed

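Total RNA of 18 cultures was measured on biotin-labelled expression arrays prepared with the WT Pico kit as the labels state. The authors deposited 1 table of log2 signals for 21448 probes, made with oligo and RMA, per the submitters' processing notes, and RMA includes background correction, quantile normalization and summarising of probe sets. For tool versions and genome build: not given in the sources used here. RMA equalises probe distributions between arrays, so a change shared by all genes would not be seen. GEO's platform annotation gave 17709 probes 1 symbol, 0 several and 3739 none. The 17709 cover 17687 symbols, and for 20 symbols with several probes the brightest over the 12 arrays was used.

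From these values, limma 3.58.1 in R 4.3.3 fitted group and replicate set over the 12 arrays (lmFit, eBayes), with Benjamini-Hochberg adjustment of p-values across the 21448 probes. "Rose", "fell" and "passed" mean an adjusted p under 0.05. The set difference is a group by set interaction, and HDM201 against RG7112 used all 18 arrays. The procedure was tested on simulated data. Intervals are 95%.

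The members, the lists (55 by function, 5 familiar ones with 455 genes) and the tests were chosen with earlier results of these data known. Named genes are the anchors CDKN1A and MDM2, then outside the familiar lists the 15 highest and 15 lowest differences without overlap between groups, the 5 highest and lowest t, and the 5 lowest p for a set difference. To these come up to 3 changed members and the largest unchanged member of each function list, and the 3 highest and lowest of the familiar lists. Other genes are marked as named after their values were seen, except SPI1, CEBPA, LYZ, MPO and KIT, which are cell type markers. Some items are not reported here. Tables and figures used Python 3.11.15, pandas 2.3.3 and matplotlib 3.10.9. Alternatives left out arrays or dim probes, changed the scaling, the prior, the array weights, the set term or the block, or took 1 set alone.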

Additional observations from a re-analysis of the deposited data

Results flagged for a closer look

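In 14 of the 160 genes followed in the text, the response to HDM201 differed between replicates 1 to 3 and replicates 4 to 6 by the interaction term of limma, against 60 of all 21448 probes (0.28%). Some of the 160 genes were chosen for the lowest p of this same term, so the count is raised by the choice. The response in replicates 1 to 3 minus that in replicates 4 to 6 was 2.24 for FCER1A, 2.51 for CLCA2, 1.94 for DLX5, 1.59 for CEACAM1, 2.07 for UNC13A and 2.28 for PYHIN1. For TNFSF4, the ligand of OX40, it was 1.05, for the immediate early gene IER3 1.51, for the ephrin receptor EPHA2 2.04, for ABCA13 1.85, for PXT1 2.07 and for DSEL 1.77. Smooth muscle actin ACTA2 and the cytidine deaminase APOBEC3H responded more in replicates 4 to 6, with values of -0.91 and -1.23.

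In 8 of 320 groups of 6 arrays (2.5%), 1 array lay far from the others by Dixon's criterion, which chance alone meets in about 1 group in 20. DMSO replicate 1 was low in 4 genes: BCAT1 at 7.06 with the others from 7.88 to 8.10, ATAD5 at 8.71 (9.05 to 9.23), MTHFD1 at 10.4 (10.68 to 10.82) and SNRPA1 at 10.32 (10.61 to 10.79). DMSO replicate 2 was low in TM7SF2 at 7.88 (8.22 to 8.34), and DMSO replicate 5 in MAP1LC3A at 7.62 (7.97 to 8.16). HDM201 replicate 1 was high in CR1 at 7.71 (6.22 to 6.75), and HDM201 replicate 5 in RAB27B at 6.22 (5.07 to 5.35).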

How the results depend on the processing

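Across the alternatives tried no probe called in both fits turned its sign, and of the 160 genes followed in the text 0 reversed. The fits share arrays, and many of these genes were chosen for large differences, so a turn of sign was unlikely from the start. A call was lost in some alternative for 12 genes, 10 of them with replicates 4 to 6 alone (ATF4, ERAP1, ERAP2, LYAR, PDK1, POLR1B, PSAT1, RAB27B, SPI1 and UTP20) and the others RPS19 and LYZ. VCAN, CCL2 and VEGFA gained one. With replicates 4 to 6 alone, 2406 probes were called, 1184 up and 1222 down, against 4325 with replicates 1 to 3 alone. Of the 5684 calls of the main fit, 40.6% were also called with replicates 4 to 6 alone and 68.2% with replicates 1 to 3 alone. Fewer arrays enter these fits. With the replicate number as a block in place of the set 5640 were called, and leaving out 1 array gave 4969 to 5662. Same-numbered arrays deviated with correlations from 0.08 to 0.30, or -0.01 to 0.27 within sets, HDM201 replicate 2 was closest to DMSO replicate 1, and the other 5 were closest to their own number. The difference of the response between sets was called for 138 probes with a trended robust prior, for 115 with array weights and for 19 to 117 without 1 array, and the cause was not tested. HDM201 against RG7112 gave 0 calls in every alternative. Subtracting array medians changed the share of calls that rose from 48.6% to 41.1%. In the list medians 67 values turned sign, all in lists with a median of at most 0.05 in size. The number of arrays and, for dim genes, signal near the background limit the folds.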

Other observations

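Some strongly raised genes were neighbours in the genome. Among 17245 coding genes in order along the chromosomes, 288 rose and 335 fell at least 2-fold. Of the adjacent pairs, 15 had both members raised at least 2-fold and 11 had both lowered. The number of such pairs in a random order was not computed. The genes of these pairs were named after their values were seen. The longest run was that of the APOBEC3 cytidine deaminases on chromosome 22, which edit viral and cellular DNA: APOBEC3C rose by 1.20, APOBEC3D by 1.32, APOBEC3F by 1.03, APOBEC3G by 1.40 and APOBEC3H by 1.96. APOBEC3B, of the same family, fell by 0.75. On chromosome 1 the complement receptor CR1 (1.62), its relative CR1L (1.41) and CD46 (1.48) stood side by side. Other raised pairs were ACTA2 (2.11) with the death receptor FAS (1.52), TREML1 (1.01) with TREM2 (2.59), GASK1B (1.78) with TMEM144 (2.55) and KSR1 (1.28) with LGALS9 (1.67). Most of the lowered pairs were histone genes on chromosome 6, such as H3C2 (-1.21) with H2AC4 (-1.45). Other lowered pairs included the flap endonuclease FEN1 (-1.60) with FADS2 (-1.60) and TUBA8 (-1.29) with USP18 (-1.56). Members of a gene family can share probe sequence, so their values are not independent.

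Of the 3739 probes without a symbol 722 were called (19.3%, against 26.5% of all probes), and 72 changed at least 2-fold (1.93%, against 3.27%).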
